A study of Mus musculus with 10 samples.

Results

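Fibroblast growth factor (FGF) genes were followed through mouse RNA sequencing of sorted rib chondrocytes and of calvarial osteoblasts. The set was defined by gene symbol: every Fgf ligand, the receptors Fgfr1 to Fgfr4 and Fgfrl1, the Sprouty genes Spry1 to Spry4, Spred1 to Spred3, the phosphatases Dusp4 and Dusp6, and the Ets factors Etv1, Etv4 and Etv5. It held 39 genes out of 22441 single-symbol names in the tables. All 39 had a row of their own in the chondrocyte table, and 38 did in the osteoblast table, where Spred1 shared a row with a microRNA gene.

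The first comparison set Col10+ against Col2+ cells. Both came from ribs of newborn mice (postnatal day 1) of the ICR strain. Col10+ cells were sorted by a Col10a1-mCherry transgene, which marks hypertrophic chondrocytes, the enlarged cells of late cartilage, and Col2+ cells by a Col2a1-ECFP transgene, which marks chondrocytes broadly. Each sort had 3 libraries, and the authors deposited 1 group value for each sort, so chondrocyte differences have no error and no test. The second comparison set Runx2_cHom_KO against Runx2_cHet_KO osteoblasts, with 2 libraries each. These cells were digested from the frontal bone and the rostral parietal bone of C57BL/6 embryos (E17.5). The genotype names read as homozygous and heterozygous conditional knockouts of Runx2, a transcription factor needed to form osteoblasts. Both groups would then carry a deleted allele, and no source used here names the Cre driver. Nothing says that the libraries came from separate animals, so p-values measure library-to-library spread alone, and that spread may be technical.

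FGF ligands bind receptor tyrosine kinases together with heparan sulphate on the cell surface. The activated receptor signals through Ras and a MAP kinase cascade, the ERK pathway. ERK signalling turns on Ets factors of the Pea3 group (Etv1, Etv4 and Etv5) and also its own inhibitors, the Sprouty, Spred and Dusp proteins. In cartilage Fgfr3 restrains growth, and its activating mutations cause achondroplasia in humans. In the skull, mutations of FGFR2 in humans fuse the sutures early, and mice without Fgf18 ossify the calvaria late.

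Values were FPKM, a level scaled to transcript length and to the mapped fragments of the library, so that genes can be compared with each other within a column. Changes are differences of log2(FPKM + 1), a scale that shrinks differences of low genes, and folds are ratios of FPKM. Chondrocyte genes count here as differing where this difference was 1 or larger, up or down, and the higher sort held 5 FPKM or more. In the osteoblasts genes with at least 1 FPKM in at least 2 libraries were tested with limma, and calls required a Benjamini-Hochberg adjusted p under 0.05 together with a log2 change of 1 or larger, up or down. The chondrocyte and osteoblast tables came from different library kits and were scaled apart, so their levels are not tested against each other.

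Total depth was unknown, because no counts were given. Relative depth was taken from osteoblast rows above 0 and under 0.06 FPKM in both libraries compared. The most frequent ratio of Runx2_cHet_KO library 1 was 0.796 and 0.844 to the Runx2_cHom_KO libraries and 0.829 to Runx2_cHet_KO library 2. If such rows mostly hold the same number of reads in both, 1 read was worth least in Runx2_cHet_KO library 1, which was then read deepest. The top 20 rows took 50.8% of all FPKM in Col10+ and 26.5% in Col2+ cells, against 39.7% to 42.0% for osteoblasts. The chondrocyte markers (Col2a1, Acan and 6 others) summed to 38493 FPKM in Col10+ and 53081 FPKM in Col2+ cells, and all 8 hypertrophic markers were higher in Col10+ cells. Markers of blood cells also stood in the Col10+ sort: 10 neutrophil genes summed to 4082 FPKM in Col10+ and 0.306 FPKM in Col2+ cells, where Camp, Ltf, Mmp8, Mpo and Retnlg were listed at 0, and 12 macrophage genes to 2016 and 3.63 FPKM. All 10 and all 12 were higher in the Col10+ sort. Of the osteoclast list all 4 genes at 5 FPKM or more were higher (sums of 370 FPKM in Col10+ and 20.5 FPKM in Col2+ cells), and of the endothelial list 7 of 8 (112 and 4.22 FPKM). All 3 such erythroid genes were higher (list sums of 64.2 and 0.105 FPKM). The osteoblast list had 7 of 9 higher, with Col1a1 at 3305 FPKM in Col10+ and 10.6 FPKM in Col2+ cells. Alpl and Ibsp of that list are also hypertrophic markers. Spp1 was lower, at 1614 and 3400 FPKM. Of 7 fibroblast and tendon genes 3 were higher and 2 lower. Osteoblast markers summed to 8027 and 8294 FPKM in the Runx2_cHom_KO libraries and to 12203 and 10669 FPKM in the Runx2_cHet_KO libraries. Most of each sum was Col1a1. All 9 markers had both Runx2_cHom_KO libraries below both Runx2_cHet_KO libraries, against 31.3% of all genes tested. Of the 9, 4 were called lower, against 1.39% of all genes. Among these 4, Bglap was listed at 0 in both Runx2_cHom_KO libraries and stood at 21.7 and 32.6 FPKM in Runx2_cHet_KO libraries. Runx2 itself was at 32.9 and 32.6 FPKM in Runx2_cHom_KO and at 43.4 and 53.9 FPKM in Runx2_cHet_KO libraries (log2 change -0.55 ± 0.13, limma adjusted p = 0.0707). A value over the whole gene does not show which exons were deleted.

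In the Col10+ chondrocytes most expressed FGF genes were lower. Of the 15 members that reached 5 FPKM in either sort, 12 were lower in Col10+ cells and 1, Spry1, was higher. Over all genes at that level 14.2% were lower and 13.8% higher. The median log2 difference of these 15 members was -1.91, against -0.31 over the 8354 genes. Only genes past the minimum enter either median. Fgf18, Fgf21, Spry4 and Etv4 passed it only through Col2+ cells, and Spry1 only through Col10+ cells, in each case the sort where they were higher. The lower members included 4 of the 5 receptor genes, the ligands Fgf18, Fgf2 and Fgf21, the inhibitors Spry2, Spry4 and Spred1, and the Ets factors Etv4 and Etv5. A bulk value cannot tell fewer cells of a type from less RNA per cell. The part of blood-cell, osteoclast, endothelial, osteoblast and fibroblast RNA in these differences, Spry1 included, was not tested. With the columns scaled to the chondrocyte markers, a choice made after seeing the data, the same 12 members were lower and Spry1 was higher.

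**Figure D1:**
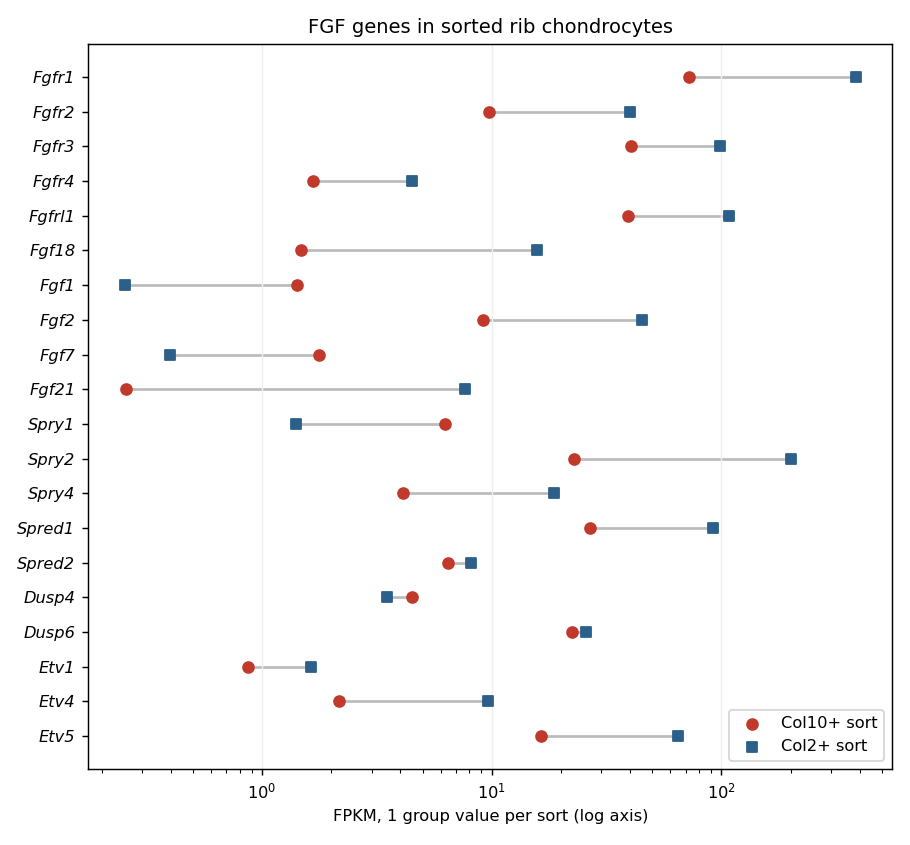
Levels of the 20 FGF genes that reached 1 FPKM in either rib sort, on a log axis; circles are Col10+ and squares Col2+ group values. Fgf18, Fgf21 and Spry2 show the widest gaps with Col10+ below Col2+, and Spry1, Fgf1, Fgf7 and Dusp4 lie the other way.

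Among the receptors Fgfr1 had the highest level in both sorts. Fgfr1, the receptor best known from osteoblasts and hypertrophic cartilage, was at 72.5 FPKM in Col10+ and 385 FPKM in Col2+ cells, 5.31-fold lower. Fgfr2, a receptor of bone precursors, was at 9.77 FPKM in Col10+ and 40.1 FPKM in Col2+ cells, 4.11-fold lower. Fgfr3, the growth-restraining receptor of cartilage, was at 40.5 FPKM in Col10+ and 98.4 FPKM in Col2+ cells, 2.43-fold lower, and it alone among the 12 dropped under the limit when the columns were centred on the median ratio of all genes (log2 difference -1.26 as deposited). Fgfrl1, which binds ligand and has no kinase domain, was at 39.2 FPKM in Col10+ and 108 FPKM in Col2+ cells, 2.75-fold lower. Fgfr4, a receptor of embryonic muscle, stayed under 5 FPKM, with 1.66 FPKM in Col10+ and 4.48 FPKM in Col2+ cells.

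The receptors were unequally lower, so the make-up of the receptor pool differed between the sorts. Fgfr1 held 58.3% of the summed FPKM of Fgfr1 to Fgfr4 in Col10+ and 72.9% in Col2+ cells. Fgfr3 held 32.5% in Col10+ and 18.6% in Col2+ cells, and its ratio to Fgfr1 was 0.558 in Col10+ and 0.256 in Col2+ cells. The Fgfr2 share was 7.85% in Col10+ and 7.60% in Col2+ cells. These shares are ratios within a column and do not depend on how the columns were scaled. They have no error, since each sort has 1 value.

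**Figure D2:**
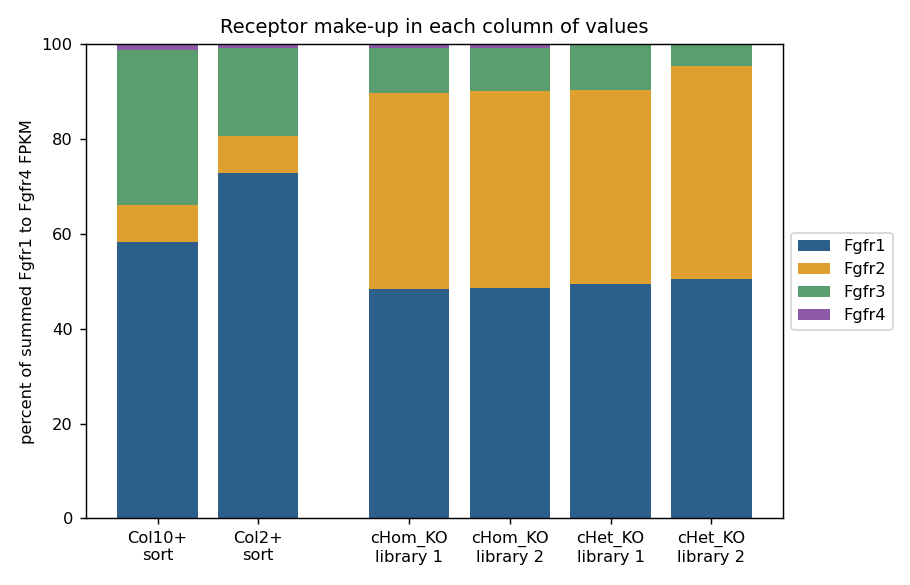
Each bar gives the share, in percent, of Fgfr1, Fgfr2, Fgfr3 and Fgfr4 in their summed FPKM for a rib sort or an osteoblast library. Fgfr3 takes 32.5% in Col10+ and 18.6% in Col2+ cells, and Fgfr2 takes 41.0% or more in each osteoblast library, with Fgfr3 smallest, at 4.64%, in Runx2_cHet_KO library 2.

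In the osteoblasts Fgfr1 and Fgfr2 were the main receptors, at similar levels, and no receptor passed the test. Fgfr1 was at 59.5 and 53.5 FPKM in Runx2_cHom_KO libraries and at 69.5 and 87.6 FPKM in Runx2_cHet_KO libraries. Both Runx2_cHom_KO values lay below both Runx2_cHet_KO values, and the log2 change was -0.46 ± 0.14 (limma standard error, adjusted p = 0.115). Fgfr2 was at 51.0 and 45.7 FPKM in Runx2_cHom_KO libraries and at 57.8 and 77.7 FPKM in Runx2_cHet_KO libraries, again without overlap, with a log2 change of -0.47 ± 0.16 (limma adjusted p = 0.146). Fgfr3 was at 11.4 and 9.89 FPKM in Runx2_cHom_KO and at 13.3 and 8.06 FPKM in Runx2_cHet_KO libraries, which overlapped. The ratio of Fgfr2 to Fgfr1 ran from 0.854 to 0.857 in Runx2_cHom_KO and from 0.832 to 0.886 in Runx2_cHet_KO libraries, so the balance of these receptors did not separate the genotypes. Fgfr1 held 48.3% and 48.6% of the receptor sum in Runx2_cHom_KO and 49.3% and 50.5% in Runx2_cHet_KO libraries.

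The kinase-free receptor lay the other way. Fgfrl1 was at 12.7 and 14.4 FPKM in Runx2_cHom_KO libraries and at 8.77 and 7.20 FPKM in Runx2_cHet_KO libraries. The groups did not overlap. The log2 change of 0.70 ± 0.15 was under the limit of 1, and its p was also above the threshold (limma adjusted p = 0.0508). Fgfr4 was at 1.16 and 0.971 FPKM in Runx2_cHom_KO and at 0.249 and 0.15 FPKM in Runx2_cHet_KO libraries, and did not enter the test because only 1 library reached 1 FPKM. With no filter on low values its log2 change was 0.79 ± 0.17 (limma adjusted p = 0.0953). Muscle markers moved with it: 6 of 7 tested muscle genes were called higher in Runx2_cHom_KO cells, against 2.3% of all genes. The list of 10 summed to 52.0 and 66.6 FPKM in Runx2_cHom_KO and to 5.12 and 6.90 FPKM in Runx2_cHet_KO libraries. Ckm was listed at 0 in both Runx2_cHet_KO libraries. The part of muscle cells in the Fgfr4 values was not tested.

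Fgf18 was the only member called in the osteoblasts. It was at 22.4 and 22.5 FPKM in Runx2_cHom_KO libraries and at 9.16 and 7.22 FPKM in Runx2_cHet_KO libraries, 22.4 ± 0.069 and 8.19 ± 1.37 FPKM (SD, n = 2 each, libraries as units). Both Runx2_cHom_KO libraries lay above both Runx2_cHet_KO libraries. The 2.74-fold rise, a log2 change of 1.36 ± 0.14, passed limma's test with an adjusted p of 0.0142, while an exact two-sided permutation test gave 0.333, its minimum with 2 libraries a group. Without Runx2_cHom_KO library 1 the log2 change was 1.36 with a limma adjusted p of 0.213, and without Runx2_cHom_KO library 2 it was 1.35 with 0.208. Those settings called 0 genes (1570 at an unadjusted p under 0.05) and 1 gene (1679) in the whole table. Of the 23 members tested, 1 was called higher and 0 lower, against 2.3% and 1.39% of 11909 genes (3.69% in either direction). An adjusted p under 0.05 with a change of any size was reached by 3 members, Fgf18, Spry1 and Etv4, and by 7.32% of all genes. At an unadjusted p under 0.05 in limma, 8 members were higher and 3 lower, 11 of 23, against 3193 of 11909 genes in either direction.

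In the chondrocytes Fgf18 was at 1.48 FPKM in Col10+ and 15.7 FPKM in Col2+ cells, 10.6-fold lower. Fgf18, Fgfrl1, Spry2 and Spry4 were the 4 members that were lower in Col10+ cells and had both Runx2_cHom_KO libraries above both Runx2_cHet_KO libraries. Only Fgf18 passed the osteoblast test. Fgfr1, Fgfr2 and Etv4 were also lower in Col10+ cells, but had both Runx2_cHom_KO libraries below both Runx2_cHet_KO libraries. Of all genes tested in the osteoblasts, 26.7% lay above in this way and 31.3% below. The promoters of Fgf18, Fgfrl1 and Spry2, from the 4 members named first, are shown. That of Fgf21 is added, because it had the largest fold among the 12 lower members. Fgfrl1, Spry2 and Fgf21 were picked after their values were seen. Each line gives the 250 bases before the start of the gene, 5′ to 3′ on its own strand, from the RefSeq promoter table of build GRCm38.p6, which was matched by symbol and is not the build of the deposited values. Capitals mark the GC box (GGGCGG), the Ets word CCGGAAGT and the TATA word TATAAA, each searched on both strands. The windows are chr11:33147401-33147650, minus strand, for Fgf18, chr5:108693979-108694228, plus strand, for Fgfrl1, chr14:105896820-105897069, minus strand, for Spry2 and chr7:45615491-45615740, minus strand, for Fgf21.
Fgf18: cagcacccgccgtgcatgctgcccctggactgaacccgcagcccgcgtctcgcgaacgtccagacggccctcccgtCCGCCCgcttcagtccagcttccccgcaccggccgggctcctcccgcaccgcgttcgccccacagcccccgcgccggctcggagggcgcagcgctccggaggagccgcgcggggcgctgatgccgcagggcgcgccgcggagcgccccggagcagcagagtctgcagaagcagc
Fgfrl1: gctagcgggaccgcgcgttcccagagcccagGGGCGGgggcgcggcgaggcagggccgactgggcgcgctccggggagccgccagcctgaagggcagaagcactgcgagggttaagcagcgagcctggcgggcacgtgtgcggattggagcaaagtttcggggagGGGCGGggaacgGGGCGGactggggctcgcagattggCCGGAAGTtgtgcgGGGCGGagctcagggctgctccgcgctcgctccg
Spry2: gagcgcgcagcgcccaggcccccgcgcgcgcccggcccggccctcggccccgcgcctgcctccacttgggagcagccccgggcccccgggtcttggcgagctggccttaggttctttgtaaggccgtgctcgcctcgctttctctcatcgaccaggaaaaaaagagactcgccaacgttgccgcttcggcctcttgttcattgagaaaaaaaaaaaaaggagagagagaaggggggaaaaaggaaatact
Fgf21: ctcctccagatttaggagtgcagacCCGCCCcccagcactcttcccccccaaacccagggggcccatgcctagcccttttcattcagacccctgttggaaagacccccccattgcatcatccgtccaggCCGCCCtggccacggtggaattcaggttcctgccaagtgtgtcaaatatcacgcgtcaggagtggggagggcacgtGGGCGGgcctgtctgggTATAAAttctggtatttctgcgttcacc

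The Fgf18 window was 77.2% G and C and held 1 GC box. The Fgfrl1 window held 4 GC boxes and the Ets word, which began 48 bases before the start. The Spry2 window held none of the words searched. Fgf21 was the only one of these 4 with a TATA word, 28 bases before the start, beside 3 GC boxes. The member search covered 37 windows for 28 of the 39 members, and Spry4 had none among them. It left out 1 chromosome, which the windows of all genes kept. A GC box was found in 62.2% of these windows and in 32.7% of 32851 windows of all genes. The Runx word TGTGGT was found in 2 members, Etv1 and Fgf11 (5.41% of member windows, 14.0% of all), the Ets word in 1 (2.70% and 2.88%), the AP-1 word TGANTCA in 2 (5.41% and 6.75%), the TATA word in 2 (5.41% and 12.4%) and the CRE word TGACGTCA in 0 (1.55% of all windows). Matches that overlap each other were kept. A match describes letters and is not a binding site.

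Among the other ligands Fgf2 and Fgf21 were also lower in Col10+ cells. Fgf2, a ligand without a classical secretion signal that cartilage matrix stores, had the highest level of all ligands in both sorts. It was at 9.19 FPKM in Col10+ and 45.1 FPKM in Col2+ cells, 4.91-fold lower. Its gene overlaps Nudt6 and Fgf2os, and no source used here says whether counting used strand, so reads of these genes may be mixed. The same holds for Fgf1 with Arhgap26, Fgf7 with Fam227b, Fgf14 with Itgbl1 and Spred3 with Ggn. Fgfr1 likewise overlaps Gm16159 and Gm31288, and Dusp6 overlaps Gm34921. Fgf12, Fgf13, Fgf15 and Fgf17 also overlap Gm or microRNA genes. Fgf21, a hormone-like ligand made in liver and under stress, was at 0.255 FPKM in Col10+ and 7.62 FPKM in Col2+ cells, 29.9-fold lower in FPKM and -2.78 on the log2(FPKM + 1) scale. Fgf1, a ligand able to bind every FGF receptor, was at 1.43 FPKM in Col10+ and 0.252 FPKM in Col2+ cells, and Fgf7, a mesenchymal ligand for epithelia, was at 1.76 FPKM in Col10+ and 0.397 FPKM in Col2+ cells. Both were higher in Col10+ cells at levels too low to be counted, and the part of the other cell types in the Col10+ sort was not tested. The summed ligand level was 15.7 FPKM in Col10+ and 69.7 FPKM in Col2+ cells, and Fgf2 held 58.5% and 64.8% of it.

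In the osteoblasts Fgf18 held the largest ligand share in 3 of the 4 libraries. It made up 55.7% and 59.6% of the summed ligand FPKM in Runx2_cHom_KO libraries and 42.7% and 29.5% in Runx2_cHet_KO libraries. The sum of all other ligands was 17.8 and 15.2 FPKM in Runx2_cHom_KO and 12.3 and 17.3 FPKM in Runx2_cHet_KO libraries, which overlapped, so the higher ligand total in Runx2_cHom_KO cells lay in Fgf18. Fgf2 was at 7.84 and 5.58 FPKM in Runx2_cHom_KO and at 4.76 and 10.4 FPKM in Runx2_cHet_KO libraries; in Runx2_cHet_KO library 2 it exceeded Fgf18. Its log2 change was -0.09 ± 0.36 (limma adjusted p = 0.903).

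Fgf9, a ligand that signals to Fgfr3 in developing limb cartilage, was at 1.71 and 1.74 FPKM in Runx2_cHom_KO and at 0.572 and 0.417 FPKM in Runx2_cHet_KO libraries. The groups did not overlap and differed 3.49-fold. The log2 change of 0.87 ± 0.20 was under the limit of 1, and its p was also above the threshold (limma adjusted p = 0.0618). Fgf10, a mesenchymal ligand of limb and lung budding, was at 1.24 and 1.70 FPKM in Runx2_cHom_KO and at 0.324 and 1.04 FPKM in Runx2_cHet_KO libraries (log2 change 0.58 ± 0.28, limma adjusted p = 0.259). Fgf7 was at 3.20 and 3.26 FPKM in Runx2_cHom_KO and at 3.68 and 3.29 FPKM in Runx2_cHet_KO libraries, and Fgf1 at 1.12 and 0.622 FPKM and at 1.43 and 0.733 FPKM. Neither differed beyond its spread (limma adjusted p of 0.776 and 0.772). Fgf21 stayed near 1 FPKM, at 1.03 and 0.644 FPKM in Runx2_cHom_KO and at 0.83 and 0.995 FPKM in Runx2_cHet_KO libraries, and was not tested.

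The intracellular members Fgf11 to Fgf14 do not act as receptor ligands and are known as partners of sodium channels in neurons. All 4 stayed under 1 FPKM in both rib sorts, and all 4 were tested in the osteoblasts, where none was called. Fgf12 was at 1.22 and 1.06 FPKM in Runx2_cHom_KO and at 0.28 and 0.525 FPKM in Runx2_cHet_KO libraries (log2 change 0.61 ± 0.22, limma adjusted p = 0.147). Fgf11, Fgf13 and Fgf14 ranged from 1.36 to 2.70 FPKM in Runx2_cHom_KO and from 0.942 to 2.58 FPKM in Runx2_cHet_KO libraries.

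The remaining members were near the floor of the tables. In the chondrocytes 19 of the 39 members stayed under 1 FPKM in both sorts, and Fgf4 and Fgf6 were listed at 0 in both. Fgf23, the phosphate-lowering hormone of bone, had the highest value among the 19, with 0.828 FPKM in Col10+ cells and a listing at 0 in Col2+ cells. In the osteoblasts 12 of 38 members stayed under 1 FPKM in every library, up to 0.679 FPKM for Fgf16 in Runx2_cHom_KO library 2, and Fgf20 and Fgf22 were listed at 0 in all 4. Fgf23 was at 0.608 FPKM and listed at 0 in Runx2_cHom_KO libraries, and at 0.129 and 0.0389 FPKM in Runx2_cHet_KO libraries. Spry3 was at 0.0556 FPKM in Col10+ and 0.398 FPKM in Col2+ cells, and at 0.0638 and 0.12 FPKM in Runx2_cHom_KO and 0.405 and 0.198 FPKM in Runx2_cHet_KO libraries. Spred3 was at 0.624 FPKM in Col10+ and 0.714 FPKM in Col2+ cells. A value of exactly 0 may be a failed estimate.

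**Figure D3:**
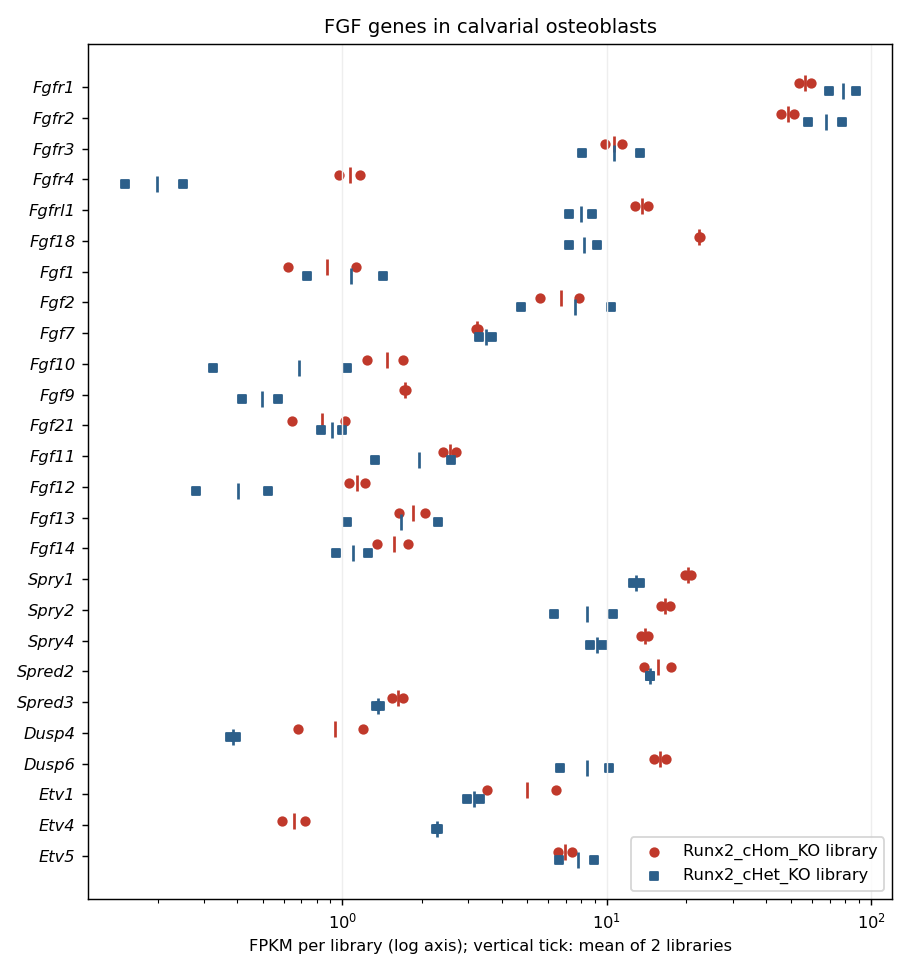
FPKM of the 26 FGF genes that reached 1 FPKM in any osteoblast library, on a log axis; circles are Runx2_cHom_KO and squares Runx2_cHet_KO libraries, and ticks mark group means. Fgf18 lies at 22.4 and 22.5 FPKM in Runx2_cHom_KO libraries, above 9.16 and 7.22 FPKM in Runx2_cHet_KO libraries, and Etv4 lies lower in Runx2_cHom_KO libraries.

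The feedback inhibitors were split in the chondrocytes. Spry2, a Sprouty protein that blocks receptor signalling to ERK, had the largest log2 difference of all members, -3.09, with 22.8 FPKM in Col10+ and 201 FPKM in Col2+ cells. A further row named Spry2 showed the same direction, at 9.95 FPKM in Col10+ and 54.8 FPKM in Col2+ cells, 5.51-fold lower. Spry4 was at 4.11 FPKM in Col10+ and 18.7 FPKM in Col2+ cells, 4.54-fold lower, and Spred1, an inhibitor that acts on Ras, was at 26.8 FPKM in Col10+ and 92.3 FPKM in Col2+ cells, 3.45-fold lower. Spry1 was instead 4.44-fold higher, at 6.23 FPKM in Col10+ and 1.40 FPKM in Col2+ cells, so the Sprouty genes did not follow each other. Dusp6, the cytoplasmic phosphatase that removes phosphate from ERK, was close in both sorts, at 22.2 FPKM in Col10+ and 25.8 FPKM in Col2+ cells. Spred2 was also close, at 6.45 and 8.12 FPKM, and Dusp4, a nuclear phosphatase of MAP kinases, was at 4.49 and 3.51 FPKM.

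In the osteoblasts most feedback genes had higher values in Runx2_cHom_KO cells, and none was called. Of the 6 tested, 5 had both Runx2_cHom_KO libraries above both Runx2_cHet_KO libraries; over all genes tested 26.7% did so and 31.3% lay the other way. Spry1 was at 20.9 and 19.7 FPKM in Runx2_cHom_KO and at 13.3 and 12.6 FPKM in Runx2_cHet_KO libraries. Its log2 change of 0.61 ± 0.11 had a limma adjusted p of 0.0366 and fell short of the limit of 1; an adjusted p under 0.05 with a rise of any size was reached by 3.78% of all genes. This p was 0.0691 with no filter on low values, 0.0705 with neither trended nor robust variances, 0.306 without Runx2_cHom_KO library 1 and 0.259 without library 2. Spry2 was at 17.4 and 16.0 FPKM in Runx2_cHom_KO and at 10.5 and 6.30 FPKM in Runx2_cHet_KO libraries (log2 change 0.94 ± 0.23, limma adjusted p = 0.0716). Dusp6 was at 15.1 and 16.8 FPKM in Runx2_cHom_KO and at 10.2 and 6.66 FPKM in Runx2_cHet_KO libraries (log2 change 0.87 ± 0.20, limma adjusted p = 0.0651).

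The size of the Spry2 and Dusp6 changes varied with the Runx2_cHet_KO library. Without library 1 their log2 changes were 1.27 and 1.15, and without library 2 they were 0.62 and 0.60. Either fit leaves 1 Runx2_cHet_KO library, so the spread within groups then comes from the Runx2_cHom_KO libraries alone. Spry4 was at 13.5 and 14.3 FPKM in Runx2_cHom_KO and at 8.62 and 9.69 FPKM in Runx2_cHet_KO libraries (log2 change 0.56 ± 0.12, limma adjusted p = 0.0596). Spred3 was at 1.70 and 1.54 FPKM in Runx2_cHom_KO and at 1.34 and 1.39 FPKM in Runx2_cHet_KO libraries (limma adjusted p = 0.659), and Spred2, with a log2 change of 0.09, overlapped between the groups (limma adjusted p = 0.733). Dusp4 was at 0.679 and 1.20 FPKM in Runx2_cHom_KO and at 0.376 and 0.396 FPKM in Runx2_cHet_KO libraries and was not tested. The row that Spred1 shares with Mir674 was at 32.8 and 27.7 FPKM in Runx2_cHom_KO and at 30.9 and 32.4 FPKM in Runx2_cHet_KO libraries (limma adjusted p = 0.758).

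The 3 Ets factors differed among themselves in the osteoblasts: 1 had both Runx2_cHom_KO libraries below both Runx2_cHet_KO libraries, 1 above, and 1 overlapped. Etv4 was at 0.589 and 0.724 FPKM in Runx2_cHom_KO and at 2.31 and 2.26 FPKM in Runx2_cHet_KO libraries, 3.48-fold lower. It passed the filter on low values only through the Runx2_cHet_KO libraries, and was not tested when either of them was left out. Its groups stood far apart, the limma adjusted p was 0.0421, and the log2 change of -0.99 ± 0.19 stopped just short of the limit; 3.54% of all genes had an adjusted p under 0.05 with a fall of any size. The limma adjusted p was 0.052 with a pseudocount of 0.1, 0.0696 with no filter on low values, 0.299 without Runx2_cHom_KO library 1 and 0.256 without library 2. Etv5 was at 7.39 and 6.56 FPKM in Runx2_cHom_KO and at 8.95 and 6.61 FPKM in Runx2_cHet_KO libraries (limma adjusted p = 0.691), and its groups overlapped. Etv1 was at 3.52 and 6.44 FPKM in Runx2_cHom_KO and at 3.33 and 2.95 FPKM in Runx2_cHet_KO libraries, without overlap (log2 change 0.49 ± 0.26, limma adjusted p = 0.306). In the chondrocytes Etv5 was at 16.3 FPKM in Col10+ and 64.4 FPKM in Col2+ cells, 3.94-fold lower, and Etv4 at 2.16 FPKM in Col10+ and 9.60 FPKM in Col2+ cells, 4.44-fold lower. Etv1 was at 0.865 FPKM in Col10+ and 1.64 FPKM in Col2+ cells.

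**Figure D4:**
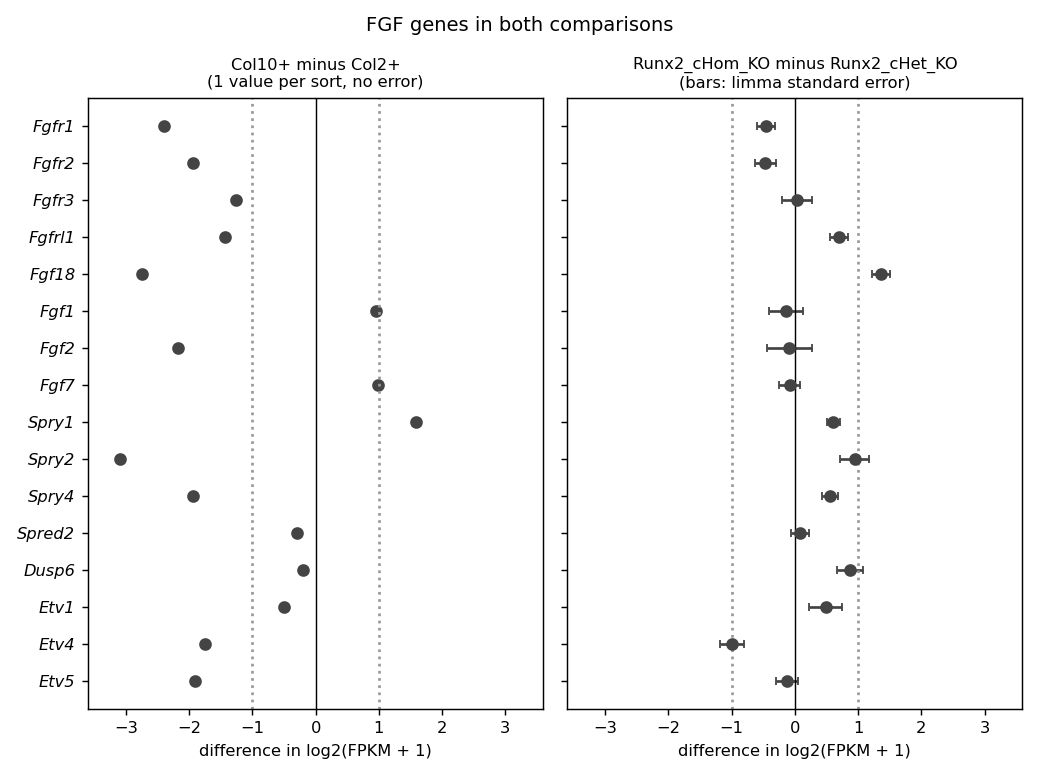
Differences in log2(FPKM + 1) of the 16 FGF genes that were described in the chondrocytes and tested in the osteoblasts; dotted lines mark the limit of 1, and bars are limma standard errors. Fgf18 is at -2.75 in Col10+ minus Col2+ and at 1.36 in Runx2_cHom_KO minus Runx2_cHet_KO, while Etv4 lies below 0 in both.

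Over all 23 members tested in the osteoblasts, 12 had both Runx2_cHom_KO libraries above both Runx2_cHet_KO libraries, 4 had them below and 7 overlapped. Of all genes tested, 26.7% had them above and 31.3% below. The median log2 change of the 23 members was 0.29, against -0.03 over all genes tested. Members enter these counts and this median only if they passed the filter on low values. Fgf9 and Fgf12 reached 1 FPKM only in Runx2_cHom_KO libraries, and Etv4 only in Runx2_cHet_KO libraries. Each thus passed the filter through the group where it was higher.

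Immediate early genes are switched on quickly by ERK signalling and also by tissue dissociation. Of 14 genes in a list of these and heat shock genes, 12 were lower in Col10+ cells and 2 higher, the near-identical heat shock genes Hspa1a and Hspa1b. The heat shock gene Dnajb1 was among the 12, at 39.6 FPKM in Col10+ and 278 FPKM in Col2+ cells. The list summed to 1206 FPKM in Col10+ and 6889 FPKM in Col2+ cells. In the osteoblasts 5 of 14 were called higher and 0 lower in Runx2_cHom_KO cells, against 2.3% and 1.39% of all genes. The sum was 3446 and 4153 FPKM in Runx2_cHom_KO and 2148 and 1864 FPKM in Runx2_cHet_KO libraries. No member of the list was at 0 in any column. Beside it, Spry2, Spry4, Etv4 and Etv5 were lower in Col10+ cells, while Dusp6, Spred2 and Etv1 were within the limit and Spry1 was higher. The part of cell isolation in the feedback values was not tested.

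**Figure D5:**
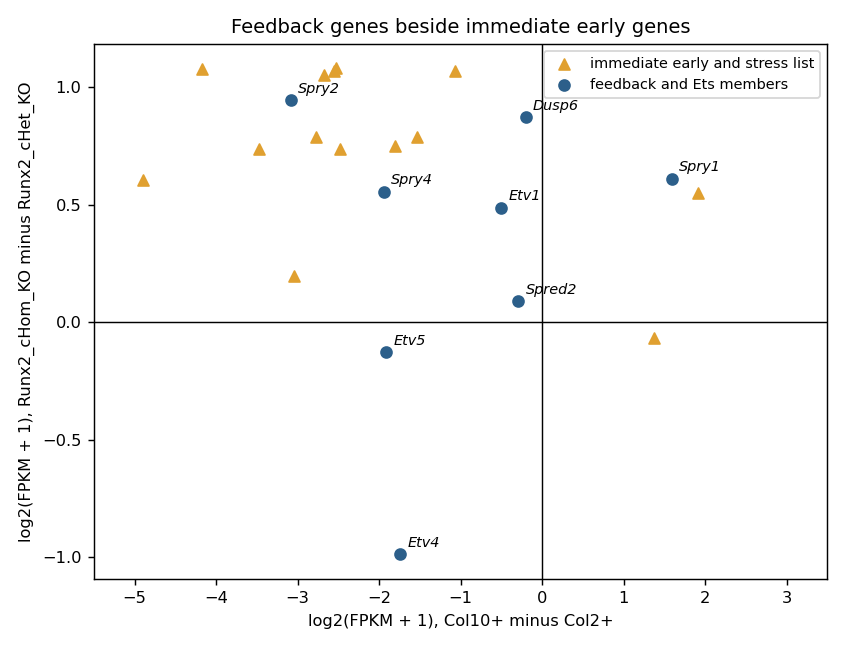
Each point is a gene placed by its difference in log2(FPKM + 1) between the rib sorts (horizontal axis) and between the osteoblast genotypes (vertical axis); triangles are the 14 immediate early and stress genes and circles 8 feedback and Ets members at 1 FPKM or more in the ribs and tested in the osteoblasts. Spry2 and Spry4 lie among the triangles, and Etv4, at -1.75 and -0.99, lies apart from them. Spry1, at 1.59 and 0.61, lies on the side of genes higher in Col10+ cells.

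Other cell types also differed between the osteoblast groups. In the endothelial list 2 of 9 genes were called higher, against 2.3% of all genes tested. All 9 had both Runx2_cHom_KO libraries above both Runx2_cHet_KO libraries, against 26.7% of all genes. The endothelial sum was 66.5 and 54.5 FPKM in Runx2_cHom_KO and 28.4 and 9.81 FPKM in Runx2_cHet_KO libraries. The chondrocyte markers summed to 518 and 650 FPKM in Runx2_cHom_KO and to 399 and 279 FPKM in Runx2_cHet_KO libraries, with 0 of 8 called. The fibroblast and tendon list, with 2 of 9 genes called higher, summed to 2946 and 2846 FPKM in Runx2_cHom_KO and to 1771 and 2178 FPKM in Runx2_cHet_KO libraries. In this list 6 genes lay above without overlap and 1, Lum, below. Runx2_cHet_KO library 1 stood out in macrophage genes, whose sum was 75.5 and 90.0 FPKM in Runx2_cHom_KO libraries and 453 and 66.6 FPKM in Runx2_cHet_KO libraries 1 and 2. All 9 endothelial and all 9 fibroblast and tendon markers were above 0 in each library. The part of these cells in the values of Fgf18 and Fgf9 was not tested. The Fgf18 log2 change was 1.51 without Runx2_cHet_KO library 1 and 1.20 without library 2. Either fit leaves 1 Runx2_cHet_KO library, so its spread within groups comes from the Runx2_cHom_KO libraries alone.

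The wider pathway was described with 59 companion genes: co-receptors, heparan sulphate proteins and enzymes, the Ras and MAP kinase chain, further inhibitors and ERK target genes. In the chondrocytes 4 of 43 at 5 FPKM or more were higher and 10 lower in Col10+ cells, with a median log2 difference of -0.41, against 13.8% higher, 14.2% lower and a median of -0.31 over all genes at that level. The 4 largest negative differences follow. Il11, a cytokine, was at 12.1 FPKM in Col10+ and 164 FPKM in Col2+ cells, Phlda1 at 57.8 and 539 FPKM, the AP-1 subunit Fosl1 at 11.6 and 96.6 FPKM, and the transcription factor Egr1 at 176 and 1125 FPKM. The 4 higher genes were the syndecan Sdc3 (90.9 FPKM in Col10+ and 33.6 FPKM in Col2+ cells), the glypican Gpc1 (75.3 and 30.8 FPKM), the kinase Mapk3 (48.4 and 21.3 FPKM) and the sulphatase Sulf1 (13.9 and 6.23 FPKM). Syndecans and glypicans carry the heparan sulphate that FGF ligands need, and other members of both families were lower: Sdc4 was at 145 FPKM in Col10+ and 523 FPKM in Col2+ cells, Gpc6 at 14.3 and 51.2 FPKM, Gpc3 at 111 and 255 FPKM and Sdc2 at 12.2 and 26.6 FPKM. These 4 were named after their values were seen.

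In the osteoblasts 5 of 52 tested companions were called, 4 higher and 1 lower in Runx2_cHom_KO cells, against 2.3% and 1.39% of all genes, and the median log2 change over the 52 was 0.00. Sulf1, which trims sulphate from heparan sulphate and thereby dampens FGF signalling, rose 1.23 ± 0.15 on the log2 scale, with 27.5 and 25.9 FPKM in Runx2_cHom_KO and 12.4 and 9.41 FPKM in Runx2_cHet_KO libraries (limma adjusted p = 0.0186). Ccnd1, the cyclin that drives entry into the cell cycle, fell, with 16.3 and 14.1 FPKM in Runx2_cHom_KO and 32.9 and 38.0 FPKM in Runx2_cHet_KO libraries (log2 change -1.17 ± 0.13, limma adjusted p = 0.0166). Fos, Egr1 and Phlda1 rose by 1.07, 1.05 and 1.04 on the log2 scale (limma adjusted p of 0.033, 0.0307 and 0.0429), and Fos and Egr1 are also on the immediate early list. With no filter on low values, or with neither trended nor robust variances, Fos, Egr1 and Phlda1 were not called (limma adjusted p from 0.0609 to 0.0823). Without Runx2_cHom_KO library 1, or without library 2, none of these 5 was called. Without Runx2_cHet_KO library 1 Fos and Egr1 were lost, and without Runx2_cHet_KO library 2 Fos and Phlda1 were lost. The kinases Map2k1 and Mapk3 were not called (limma adjusted p of 0.507 and 0.0812).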

How the data were processed

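RNA of rib chondrocyte sorts and of calvarial osteoblasts was sequenced. According to the labels, chondrocyte libraries used 100 ng of total RNA and a TruSeq kit, and osteoblast libraries 1.7 ng and a SMARTer stranded kit. Per the submitters' processing notes, TopHat2 2.1.0, Cufflinks and Cuffdiff 2.2.1 were used with build mm9, with no order given. The deposited values are FPKM made by the authors: 1 value per sort for chondrocytes, combined in a way not given in the sources used here, and 1 value per library for osteoblasts. The chondrocyte table held 1 value column that matched no sample and was not used.

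Rows without a name (3444, chondrocytes) or with a date as name (25 chondrocyte, 26 osteoblast) were left out; the row with the highest mean stood for a symbol. Osteoblasts were fitted with limma 3.58.1 in R 4.3.3 on log2(FPKM + 1) with trended, robust variances over 11909 genes, adjusted over all of them. The pipeline was tested on simulated data. Members, gene lists and tests were chosen with earlier results of these data known. Every member was described at 1 FPKM or more in any column; of the companions, those called and the 4 largest differences each way in the chondrocytes were named. Marker genes were matched through RefSeq synonyms where symbols had changed. The motif words and the marker scaling were chosen after the data were seen. Tested alternatives were the pseudocount, the filter on low values, scaling, variance model, replicate block, minimum change and leaving out each library.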

Additional observations from a re-analysis of the deposited data

How the results depend on the processing

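Fgf18 kept its rise and its call in the osteoblasts at a pseudocount of 0.1, with no filter, with centred columns, with neither trend nor robust variances and with the replicate block (limma adjusted p from 0.0159 to 0.0358). The call was lost without either Runx2_cHom_KO library and kept without either Runx2_cHet_KO library. Such fits leave 1 library in a group, so their spread within groups comes from the other group alone. Genes called numbered 439, against 872 with no minimum change and 248 with no filter on low values, and from 0 to 619 when a library was left out. Members called higher numbered 1, against 2 with no minimum change (Fgf18 and Spry1), and from 0 to 3 on leaving out a library. Members called lower numbered 0, against 1 with no minimum change (Etv4), and 0 in each case without a library. Companions called numbered 5, against 9 with no minimum change, 2 with no filter, 2 with neither trend nor robust variances and 3 with the replicate block, and from 0 to 5 on leaving out a library. The cause of these shifts was not tested. Replicate numbers are shared by the genotypes, but same-numbered libraries did not deviate together (r = -0.05 over 11909 genes), so nothing shows that they are pairs; the replicate block gave 293 called genes and kept Fgf18 as the only called member, with limma adjusted p of 0.0833 for Spry1, 0.0864 for Etv4, 0.0553 for Fos and 0.0903 for Phlda1. Members higher in Col10+ cells numbered 1, or 0 at a minimum of 10 FPKM, which Spry1 does not reach; members lower numbered 12, and from 10 to 13 in the alternatives. Centring the chondrocyte columns gave 1470 genes higher and 616 lower, against 1150 and 1188 as deposited (the median gene lies at -0.35 in the log2 ratio). Scaling to the chondrocyte markers, added after seeing the data, gave 1305 and 825. FPKM without counts gives no counting error, and limits the reading of values under 1 FPKM.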
